A study of Mus musculus with 24 samples.

Results

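The 10 chemokine ligand genes Ccl2, Ccl3, Ccl4, Ccl6, Ccl9, Ccl24, Cxcl1, Cxcl2, Cxcl10 and Cxcl12 were followed in blood RNA of mice after total body irradiation. They were taken by name, as every probe on the array whose gene name was one of the 10, which gave 12 probes on 21 spots. They are 10 of the 29742 gene or transcript names on the array. The samples were peripheral blood of 24 male C57BL/6J mice, with a separate array for every mouse. There were 4 groups of 6. Young mice were 2 months old and old mice 21 months old, and at each age 1 group was sham-exposed (0 Gy, called unirradiated here) and the other received 4 Gy of x-rays to the whole body (irradiated). All mice were held without anesthesia, and blood was drawn by cardiac puncture 24 h after exposure. Whole blood RNA holds the transcripts of every blood cell type together, so fewer cells of a type and less RNA per cell cannot be told apart in any result here.

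Chemokines are small secreted proteins that steer leukocytes through G protein-coupled receptors. Those of the CC family mostly attract monocytes, eosinophils and T cells through receptors such as Ccr1, Ccr2 and Ccr3, and those of the CXC family attract neutrophils through Cxcr2, activated T cells through Cxcr3 and hematopoietic cells through Cxcr4. Several of these genes are induced by NF-kB or interferon signalling, whereas others are made steadily by myeloid cells (Ccl6, Ccl9) or by stromal and liver cells (Cxcl12).

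The promoters of 7 of the 10 members were held in the RefSeq table used here (mouse build GRCm38.p6), and Ccl2, Ccl4 and Ccl24 had no entry. The 250 bases before the start of 4 members are given 5′ to 3′ on the strand of the gene, because these members had contrasting patterns in the blood: Ccl6 and Ccl9 were bright in all mice and higher after irradiation of young mice, Cxcl10 was measured in all mice and did not pass the test in any comparison, and Cxcl2 was mostly not well above background. Capitals mark matches, on either strand, to an NF-kB site (GGANTTTCC), an interferon-stimulated response element (GAAANNGAA), an AP-1 site (TGANTCA) or a PU.1 site (GAGGAAGT).
Ccl6: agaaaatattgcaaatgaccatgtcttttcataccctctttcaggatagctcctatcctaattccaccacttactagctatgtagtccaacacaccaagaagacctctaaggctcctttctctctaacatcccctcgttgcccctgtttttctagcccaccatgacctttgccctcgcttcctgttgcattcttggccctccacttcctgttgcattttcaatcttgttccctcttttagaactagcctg
Ccl9: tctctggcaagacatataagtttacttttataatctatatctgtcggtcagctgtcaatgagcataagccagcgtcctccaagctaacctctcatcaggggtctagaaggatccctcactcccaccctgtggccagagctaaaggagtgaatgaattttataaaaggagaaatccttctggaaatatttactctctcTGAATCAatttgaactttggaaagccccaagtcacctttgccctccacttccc
Cxcl10: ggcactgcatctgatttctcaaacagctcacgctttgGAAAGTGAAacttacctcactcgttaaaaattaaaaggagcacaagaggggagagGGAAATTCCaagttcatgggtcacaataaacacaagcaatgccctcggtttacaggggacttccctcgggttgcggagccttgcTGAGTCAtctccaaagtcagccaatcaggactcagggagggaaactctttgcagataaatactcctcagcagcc
Cxcl2: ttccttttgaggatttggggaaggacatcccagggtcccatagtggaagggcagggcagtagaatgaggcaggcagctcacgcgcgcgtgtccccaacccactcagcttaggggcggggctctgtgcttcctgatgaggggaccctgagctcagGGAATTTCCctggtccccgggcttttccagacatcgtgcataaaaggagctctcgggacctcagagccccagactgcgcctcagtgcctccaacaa

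These stretches lie at chr11:83593088-83593337, minus strand (Ccl6), chr11:83578637-83578886, minus strand (Ccl9), chr5:92348890-92349139, minus strand (Cxcl10) and chr5:90903649-90903898, plus strand (Cxcl2). Ccl6 had no match. Ccl9 had an AP-1 match that began 53 bases before the start. Cxcl10 carried all 3 kinds of match other than PU.1, with an interferon-stimulated response element at 213, an NF-kB site at 158 and an AP-1 site at 74 bases before the start. An NF-kB match stood at 96 bases in Cxcl2 and at 70 bases in Cxcl1, whose promoter is not printed. Ccl3 had a match to the interferon-stimulated response element at 39 bases, and Cxcl12 had none. Of 32851 promoter stretches of the same length, 1.07% held the NF-kB letters, 7.13% those of the interferon-stimulated response element, 6.75% those of AP-1 and 2.44% those of PU.1. These are matches of letters and do not show binding.

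Levels are given as log2 of the background-corrected signal minus the median of the non-control spots of the same array, so that 0 is the level of the median spot. They are compared between mice and not between probes. On the 24 arrays 43.9% to 64.4% of spots were well above background, and the median signal was 8.66 to 44.8. Every slide (6 in all, with 4 arrays each) carried only young or only old mice, and 1 slide of each age mixed 2 irradiated with 2 unirradiated mice. The young mice's arrays were scanned on a different day from those of old mice, so scan day and age cannot be told apart. Blood cell markers were measured as the label would have it (9 of 9 platelet, 9 of 9 natural killer cell, 9 of 11 T cell and 10 of 12 neutrophil markers were well above background on all 24 arrays), but 3 irradiated young mice (replicates 2, 4 and 5) and 3 irradiated old mice (replicates 2, 3 and 5) also had high hepatocyte transcripts. Irradiated old replicates 4 and 6 stood apart with low monocyte markers, and their median signals were 8.66 and 8.84. The signals of irradiated young replicates 2 and 5 and of unirradiated old replicates 1 and 6 differed, over 13722 probes, with SDs of 0.147 and 0.149 on the log2 scale, within the range of repeat spots on 1 array (0.0785 to 0.156), against a median of 0.432 for 60 pairs of the same group. Irradiated young replicates 1 and 6 came next (0.2), and with each of these 3 pairs counted as 1 sample, an alternative chosen after the data were seen, 4, 0 and 4 members were called in the 3 comparisons with unirradiated mice, the same numbers as without it. Cxcl1 and Cxcl12 in young mice, which rest on a fit without a filter on dim probes, then lost their calls (adjusted p = 0.0331 and 0.0377).

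**Figure D1:**
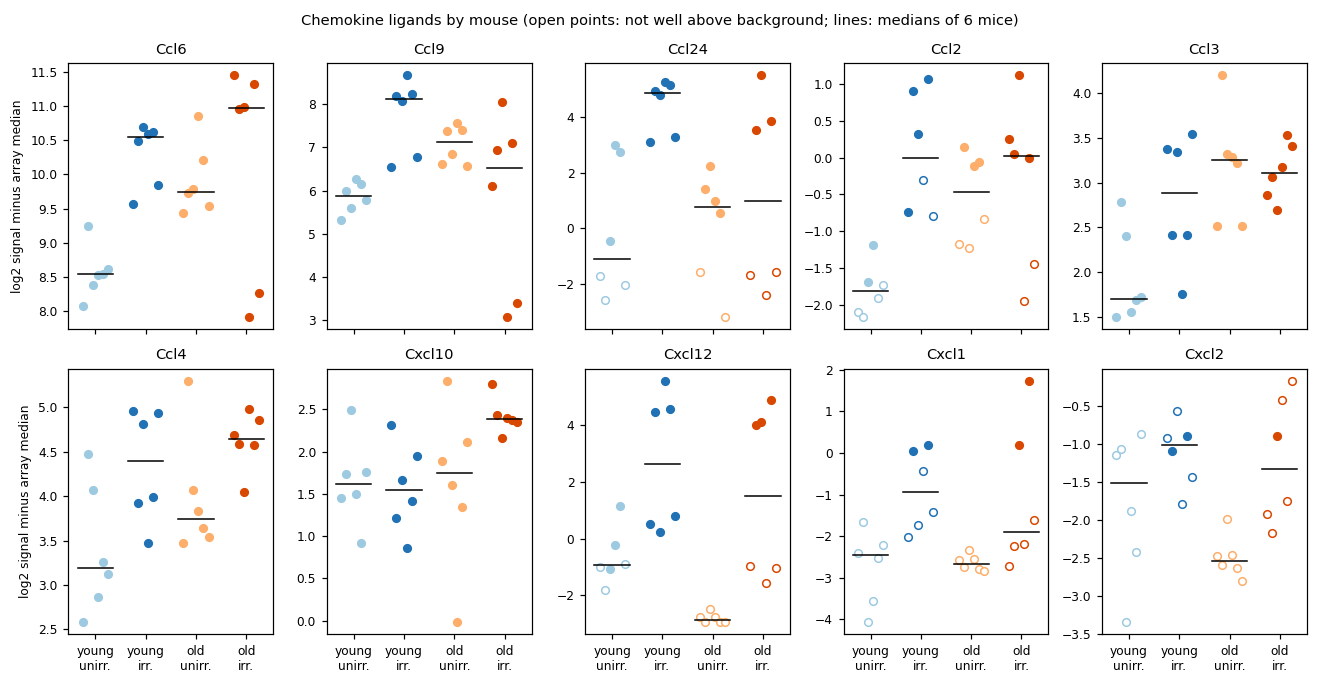
Level of each of the 10 chemokine ligands in every mouse (y axis, log2 signal minus array median; x axis, the 4 groups of 6 mice; open points, not well above background; lines, group medians). Ccl6, Ccl9, Ccl24 and Ccl2 of irradiated young mice lie above those of all unirradiated young mice, and in irradiated old mice replicates 4 and 6 have Ccl6 at 7.91 and 8.26 and Ccl9 at 3.07 and 3.39, below the other 4 mice.

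After irradiation of young mice, 4 of the 7 members that entered the fit across genes rose (Ccl6, Ccl9, Ccl24 and Ccl2), between 3.36-fold and 23.8-fold, and none fell. For these 4 the groups did not overlap, as was so for 9.46% of all genes in that direction. At the same threshold (p under 0.005 and adjusted p under 0.05, limma with Benjamini-Hochberg adjustment over 17805 genes) 35.4% of all genes were called, 14.3% as higher and 21.1% as lower. The median change of the 7 members was 1.75 on the log2 scale, beside -0.20 over all genes. In old mice 0 of the 7 members were called after irradiation, where 24.9% of all genes were (7.49% higher and 17.4% lower). Of the genes called in old mice 30.1% were higher, and 36.1% to 53.5% under other scalings, none of which called any of these 7 members. That count of 0 was also given by the random variance test and by limma with trend and robust variance, and 0 of the 7 had an unadjusted p under 0.05. No member in the fit had groups that did not overlap in old mice, as 5.82% of all genes did in the upward direction. The median change of the members in old mice was 0.23, beside -0.26 over all genes. The other 3 members, Cxcl1, Cxcl2 and Cxcl12, were dropped by the filter on dim probes, and their tests come from a fit of all 29742 genes without that filter, which called 20.7% of genes in young and 15.6% in old mice. The p-values rest on the spread between the arrays of a group, with very similar arrays counted as separate mice. Apart from the mixed slides, each slide held a single group, so that spread only partly covers differences between slides.

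**Figure D2:**
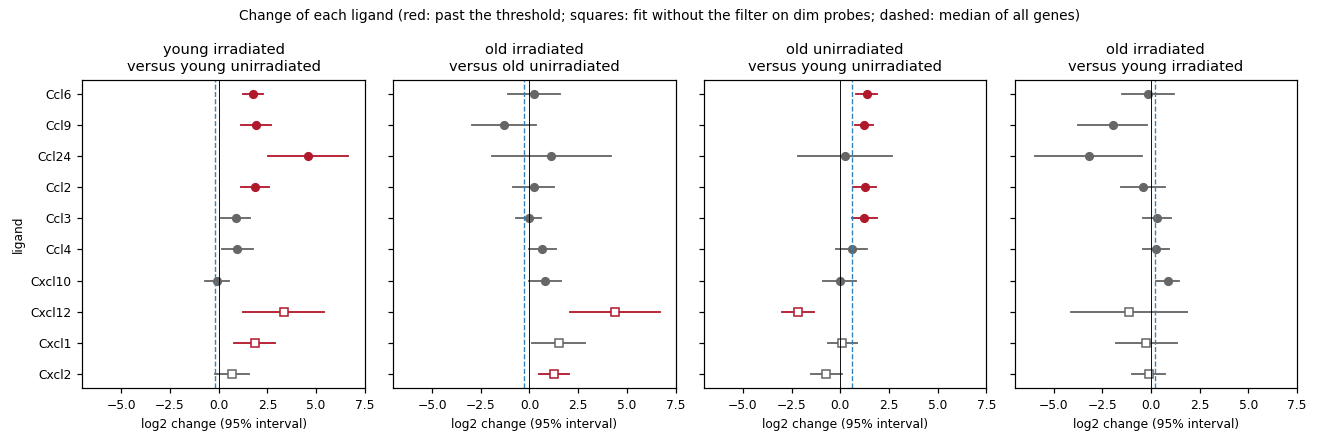
Log2 change of each ligand in the 4 comparisons of pairs of groups (x axis, difference of the means of 6 mice with its 95% interval; red, past the threshold; squares, from the fit without the filter on dim probes, resting largely on mice not well above background; dashed line, median of all genes). The 4 members called in the fit after irradiation of young mice lie between 1.75 and 4.57, and the dashed line stands at 0.63 between the unirradiated groups.

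Ccl6, a ligand of Ccr1 made by myeloid cells, was measured with probe A_51_P460954 (chr11:83401997-83402056, minus strand, mouse build mm9). Its level in unirradiated young mice was 8.07, 8.54 and 9.24 (lowest, median and highest of 6 mice), and in irradiated young mice 9.57, 10.55 and 10.70. Every irradiated young mouse was above every unirradiated one. The change was 1.75 ± 0.242 (SE, n = 6 and 6) on the log2 scale, or 3.36-fold (limma adjusted p = 0.000117; two-sided exact permutation test p = 0.00216, the smallest that splitting 12 mice into 6 and 6 allows). Among unirradiated old mice the level was 9.43, 9.75 and 10.86. Irradiated old mice spanned 7.91 to 11.46 with a median of 10.98. In the irradiated old group replicates 1, 2, 3 and 5 had 10.96 to 11.46, all above the highest unirradiated old mouse, and replicates 4 and 6 had 7.91 and 8.26, both below the lowest. The mean difference was 0.23 ± 0.626 (95% interval -1.12 to 1.58; adjusted p = 0.793). Without replicates 4 and 6, left out after their Ccl6 and Ccl9 had been seen and so given as a description, the difference was 1.26.

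Ccl9, another myeloid ligand of Ccr1, lies beside Ccl6 on chromosome 11 (probe A_51_P185660, chr11:83388223-83388282, minus strand, mm9). In young mice it went from 5.32, 5.88 and 6.27 without irradiation to 6.54, 8.13 and 8.68 with it, and the groups did not overlap. The rise was 1.90 ± 0.354 on the log2 scale, or 3.72-fold (limma adjusted p = 0.000859; exact permutation p = 0.00216). Unirradiated old mice had 6.58, 7.12 and 7.58, and irradiated old mice 3.07, 6.53 and 8.05. Within the irradiated old group replicate 3 was the highest, replicates 1, 2 and 5 lay between 6.10 and 7.11, and replicates 4 and 6 were at 3.07 and 3.39, lower than any other mouse of the study. The mean difference in old mice was -1.29 ± 0.767 (95% interval -2.94 to 0.36; adjusted p = 0.208). Without replicates 2, 3 and 5, in which hepatocyte transcripts were high, it was -2.89 and passed the test (limma adjusted p = 0.00272), a comparison of replicates 1, 4 and 6 with 6 mice. Without replicates 4 and 6 it was -0.02 (adjusted p = 0.971).

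Monocyte markers were looked at beside both genes. The list held 11 genes, 10 of them measured, none of those always below background and Lyz1 the highest by mean. Its mean level relative to the median unirradiated young mouse was -0.26 to 0.66 in unirradiated young mice, 1.24 to 1.83 in irradiated young mice and 0.93 to 1.69 in unirradiated old mice. In irradiated old mice replicates 4 and 6 were at -0.97 and the other 4 between 1.47 and 1.84. Ccl9 did not follow the markers in all mice. In irradiated old replicates 1, 2 and 5 the markers were at 1.47, 1.84 and 1.71. Ccl9 was at 6.10, 6.95 and 7.11 there, not above the median of unirradiated old mice (7.12). The part of monocyte number in the Ccl6 and Ccl9 values was not tested. Replicates 4 and 6 also had the lowest median signals of the irradiated old group.

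Ccl24 (eotaxin 2), which attracts eosinophils through Ccr3 and is made by macrophages, was measured with probe A_51_P322640 (chr5:136046667-136046726, minus strand, mm9). Unirradiated young mice had -2.55, -1.08 and 2.98, of which 3 were well above background. Irradiated young mice had 3.09, 4.84 and 5.23, all 6 well above background. Even the lowest irradiated young mouse was above the highest unirradiated one, although replicates 4 and 5 of the unirradiated group came close at 2.98 and 2.75. The rise was 4.57 ± 0.947 on the log2 scale, or 23.8-fold (95% interval 2.53 to 6.62 on the log2 scale; limma adjusted p = 0.00170; exact permutation p = 0.00216). Since 3 unirradiated mice were not well above background, the size depends on the background, and with normexp background correction it was 2.72 on the log2 scale (adjusted p = 0.0111). Without irradiated young replicates 2, 4 and 5, an alternative chosen after the data were seen, the difference was 3.88 and no longer passed (adjusted p = 0.0277). In unirradiated old mice the level was -3.16, 0.76 and 2.23, and in irradiated old mice -2.39, 0.98 and 5.49. The irradiated old group was split: replicates 2, 3 and 5 had 3.52, 5.49 and 3.85, above all unirradiated old mice, while replicates 1, 4 and 6 were not well above background. Its mean difference was 1.13 ± 1.42 (95% interval -1.93 to 4.18; adjusted p = 0.555).

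Tissue macrophage markers (17 genes, 16 of them in the mean level, Cd163 at no time well above background and Adgre1 the highest by mean) were split in the same mice. Their level was -0.72, -0.07 and 1.86 in unirradiated young mice, 2.67, 3.82 and 4.31 in irradiated young mice and -0.85, 0.53 and 1.83 in unirradiated old mice. The 2 highest unirradiated young mice for these markers were replicates 4 and 5 (1.86 and 1.78), also the highest for Ccl24. In irradiated old mice replicates 2, 3 and 5 had 3.21, 4.27 and 3.61, against -0.57, 0.24 and 0.36 in replicates 1, 4 and 6. Eosinophil markers, the cells Ccl24 acts on, had a median of 0.06 in unirradiated and -0.21 in irradiated young mice, and Epx among them was at no time well above background. The part of macrophage transcripts in the Ccl24 values was not tested.

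**Figure D3:**
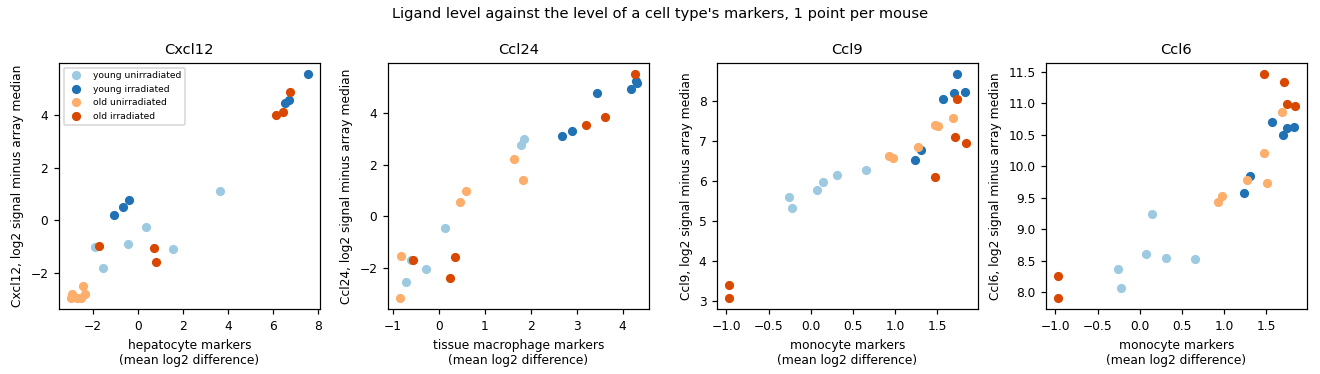
Level of Cxcl12, Ccl24, Ccl9 and Ccl6 (y axes, log2 signal minus array median) against the mean level of a cell type's markers (x axes, mean log2 level relative to the median mouse of the unirradiated young group), 1 point per mouse and colours for the 4 groups. The mice with high hepatocyte markers are those with high Cxcl12, those with high tissue macrophage markers have high Ccl24, and the 2 irradiated old mice at -0.97 for monocyte markers have the lowest Ccl9.

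Ccl2 (monocyte chemoattractant protein 1), the ligand of Ccr2 that calls monocytes out of bone marrow, was measured with 10 repeat spots of probe A_51_P286737 (chr11:81850650-81850709, plus strand, mm9). It was dim, and 13 of 24 arrays had it well above background. Unirradiated young mice had -2.16, -1.81 and -1.19, and irradiated young mice -0.79, 0.00 and 1.07. The young groups did not overlap, with 2 of 6 unirradiated and 4 of 6 irradiated mice well above background. The difference was 1.87 ± 0.332 on the log2 scale, or 3.65-fold (limma adjusted p = 0.000618; exact permutation p = 0.00216), and on the authors' deposited values it was 1.62 and not called (adjusted p = 0.0322). In old mice the level was -1.23, -0.47 and 0.14 without irradiation and -1.95, 0.02 and 1.12 with it. Replicates 4 and 6 were again the lowest irradiated old mice (-1.95 and -1.44, neither well above background), and the groups overlapped. The difference was 0.22 ± 0.491 (95% interval -0.84 to 1.27; adjusted p = 0.751). Its receptor gene Ccr2, a monocyte gene, fell by 2.20 on the log2 scale in irradiated old mice (SE 0.598, limma adjusted p = 0.0133), while in young mice the difference was 0.20 ± 0.162 (adjusted p = 0.345).

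Ccl3 and Ccl4 (macrophage inflammatory proteins 1 alpha and 1 beta), made by activated leukocytes, were well above background on all 24 arrays and passed in neither age. Ccl3 (probe A_51_P140710, chr11:83461358-83461417, minus strand, mm9) was at 1.5, 1.70 and 2.78 in unirradiated young mice and at 1.75, 2.88 and 3.54 in irradiated young mice. The ranges overlapped, and the difference of 0.87 ± 0.334 did not pass (p = 0.0222, limma adjusted p = 0.0483; exact permutation p = 0.0476). Ccl4 (probe A_51_P509573, chr11:83478052-83478111, plus strand, mm9) was at 2.58, 3.19 and 4.48 and at 3.47, 4.40 and 4.96 in the same groups. Here too the ranges overlapped, and the difference of 0.96 ± 0.362 did not pass (p = 0.0203, limma adjusted p = 0.0448; exact permutation p = 0.0433). Both were called without irradiated young replicates 2, 4 and 5 (1.48 and 1.51; adjusted p = 0.00219 and 0.00875), Ccl3 also without irradiated young replicate 4 alone (1.08, adjusted p = 0.0106) and Ccl4 without unirradiated young replicate 2 alone (1.17, adjusted p = 0.0150).

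In old mice Ccl3 was at 2.51, 3.25 and 4.20 without irradiation and at 2.69, 3.11 and 3.53 with it. The irradiated old mice lay inside the range of the unirradiated ones, with a difference of -0.05 ± 0.307 (95% interval -0.71 to 0.61; adjusted p = 0.911) whose sign turned under 4 other scalings or background corrections and on the deposited values (0.22 to 0.28). Ccl4 was at 3.47, 3.74 and 5.30 in unirradiated old mice and at 4.05, 4.64 and 4.98 in irradiated old mice. Replicate 2 of the unirradiated old group, at 5.30, was above every irradiated old mouse, and its nearest group mate was at 4.07. The difference was 0.65 ± 0.322 (adjusted p = 0.135), and without that mouse it was 0.91 and called (limma adjusted p = 0.0193).

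Ccr1, the receptor gene of Ccl3, Ccl6 and Ccl9, rose by 1.57 ± 0.212 on the log2 scale in irradiated young mice (limma adjusted p = 9.85e-05), though 0 of 6 unirradiated and 3 of 6 irradiated young mice had it well above background. In old mice its difference was 1.24 ± 0.657 (adjusted p = 0.161). Ccr3, the receptor of Ccl24, differed by 0.10 ± 0.368 in young mice, where old mice had -0.54 ± 0.678, and neither passed.

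Cxcl10 (interferon-inducible protein 10), which attracts activated T cells through Cxcr3, was measured with 2 probes. The brighter one (A_55_P2016462, chr5:92775781-92775840, minus strand, mm9) was well above background in all 24 mice, the other (A_55_P2016459, chr5:92776616-92776675) in 1 of 24. Its level was 0.92, 1.62 and 2.49 in unirradiated young mice and 0.86, 1.54 and 2.31 in irradiated young mice. These ranges were nearly the same, and the difference was -0.07 ± 0.280 (95% interval -0.68 to 0.53; limma adjusted p = 0.852). Unirradiated old mice spread from -0.02 through 1.75 to 2.84. Irradiated old mice were narrow, at 2.16, 2.39 and 2.80, inside that spread. The difference of 0.79 ± 0.390 did not pass (adjusted p = 0.134; exact permutation p = 0.0476). Of 21 listed interferon-stimulated genes in the fit, 15 were called higher and 1 lower in irradiated young mice, with a median change of 1.46 beside -0.20 over all genes, and 3 were called higher in irradiated old mice (4 to 6 with the other scalings and on the deposited values, 0 with normexp). The share of all genes called higher was 14.3% in young and 7.49% in old mice. The receptor gene Cxcr3 differed by 0.20 ± 0.366 in young and -0.23 ± 0.503 in old mice (adjusted p = 0.682 and 0.746).

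Cxcl12 (stromal cell-derived factor 1) retains hematopoietic cells in bone marrow through Cxcr4 and is taken up by Ackr3. It too had 2 probes, of which the brighter (A_51_P172502, chr6:117131227-117131286, plus strand, mm9) was well above background on 12 of 24 arrays and the other (A_55_P1966204, chr6:117125026-117125085) on 6. In unirradiated young mice the level was -1.80, -0.94 and 1.13 (3 of 6 well above background), and in irradiated young mice 0.22, 2.63 and 5.56 (6 of 6). Irradiated young replicates 2, 4 and 5 had 4.47, 5.56 and 4.58, and the other 3 had 0.22 to 0.79, within the range of the unirradiated mice. The difference was 3.33 ± 0.960 on the log2 scale and was called in the fit without the filter on dim probes (limma adjusted p = 0.0217; exact permutation p = 0.0108). With 1 mouse left out at a time it was 2.75 to 3.82 and was called in 4 of 12 cases, the call being lost without unirradiated replicates 1, 2, 3, 4 or 6 or irradiated replicates 2, 4 or 5. Without irradiated replicates 2, 4 and 5 together it was 1.15 (adjusted p = 0.175).

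Unirradiated old mice had Cxcl12 at -2.95, -2.86 and -2.48, and in none was it well above background. Irradiated old mice had -1.58, 1.51 and 4.88. As in young mice, the group was split, with replicates 2, 3 and 5 high (4.00, 4.11 and 4.88) and replicates 1, 4 and 6 not well above background, so that these 3 have no order against the unirradiated mice. The fit without the filter on dim probes called Cxcl12 higher in irradiated old mice (difference of measured means 4.38 ± 1.08 on the log2 scale, limma adjusted p = 0.0126). Against the lowest signal among probes well above background on each unirradiated array, the irradiated mean was 5.17-fold higher. That mean includes the measured values of replicates 1, 4 and 6, which were not well above background, so 5.17-fold is not a strict lower bound. Without replicates 2, 3 and 5 no mouse of either group was well above background, and no difference is given. The second probe had medians of -2.28, -0.01, -2.43 and 0.21 in unirradiated young, irradiated young, unirradiated old and irradiated old mice, with 0, 3, 0 and 3 mice well above background.

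The 6 irradiated mice with high Cxcl12 were the 6 with high hepatocyte markers (20 genes, 19 measured, none always below background and Hp the highest by mean). Relative to the median unirradiated young mouse these markers were at 6.54, 7.53 and 6.70 in young replicates 2, 4 and 5 and at 6.10, 6.41 and 6.74 in old replicates 2, 3 and 5. Unirradiated old mice lay between -2.96 and -2.33. In unirradiated young mice the highest marker level, 3.66, and the highest Cxcl12, 1.13, were both of replicate 5. Endothelial markers, whose cells also make Cxcl12, were higher in all irradiated mice (1.31 to 1.69 in young and 1.85 to 2.31 in old) than in unirradiated mice (-0.31 to 0.24 and -0.03 to 0.59), with Vwf the highest by mean and Tek and Emcn at no time well above background. Platelet markers were also higher in irradiated mice (0.53 to 2.6 in young and 2.62 to 3.4 in old) than in unirradiated mice of the same age (-0.56 to 0.4 and 0.73 to 1.72). Fibroblast and stromal markers were at 0.27 to 3.03 in irradiated young and -0.36 to 1.57 in irradiated old mice, with Pdgfra, Dpt and Postn at no time well above background. Unirradiated mice overlapped with these ranges (-1.02 to 1.31 in young and -0.98 to 0.98 in old). Irradiated young replicates 2, 4 and 5 were at 2.94, 3.03 and 2.97. Replicate 3 of that group was at 2.5, with Cxcl12 at 0.22. The part of these transcripts in the Cxcl12 values was not tested.

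Among the receptors of Cxcl12, Cxcr4 fell by 1.08 on the log2 scale in irradiated young mice (SE 0.193, limma adjusted p = 0.000653). In old mice the difference was -1.09 ± 0.568 and did not pass (adjusted p = 0.154). Ackr3 was dim and was not in the fit, with differences of 3.07 ± 0.676 (young) and 1.85 ± 0.621 (old) without the filter on dim probes, and 1, 6, 0 and 2 mice well above background in unirradiated young, irradiated young, unirradiated old and irradiated old mice.

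Cxcl1 and Cxcl2, neutrophil attractants that bind Cxcr2, were close to background in blood. Cxcl1 (probe A_51_P363187, chr5:91321845-91321904, plus strand, mm9) was well above background in 4 of 24 mice. These were irradiated young replicates 2 and 5 (0.04 and 0.20) and irradiated old replicates 3 and 5 (0.20 and 1.74). All 4 had high hepatocyte transcripts and the highest median signals of their groups (40.1, 38.6, 33.1 and 33.1). The part of hepatocyte transcripts or of array brightness in the detection of Cxcl1 and Cxcl2 was not tested. The Cxcl1 groups were at -4.07, -2.46 and -1.65 in unirradiated and -2.02, -0.93 and 0.20 in irradiated young mice, and at -2.84, -2.66 and -2.32 in unirradiated and -2.71, -1.89 and 1.74 in irradiated old mice. In young mice the fit without the filter on dim probes called it higher after irradiation (difference of measured means 1.84 ± 0.491 on the log2 scale; limma adjusted p = 0.0146). Since 0 of 6 unirradiated and 2 of 6 irradiated mice were well above background, no fold is given. With 1 mouse left out at a time that call was lost without unirradiated replicates 3 or 4 or irradiated replicates 2, 4 or 5. In old mice it did not pass (1.5 ± 0.637, adjusted p = 0.120).

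Cxcl2 (probe A_51_P217463, chr5:91334534-91334593, plus strand, mm9) was well above background in 3 of 24 mice, irradiated young replicates 2 and 5 and irradiated old replicate 3, all of them also with Cxcl1 well above background and high hepatocyte transcripts. Its levels in young mice were -3.35, -1.52 and -0.87 without and -1.79, -1.01 and -0.57 with irradiation. In old mice they were -2.81, -2.54 and -1.99 without and -2.17, -1.33 and -0.17 with irradiation. No fold is given, since the group means did not exceed the lowest signal of probes well above background. The fit without the filter on dim probes called it higher in irradiated old mice, but 11 of the 12 old mice had no signal well above background, so that nothing is read from that call, and it was not called in young mice. Cxcr2, their receptor gene on neutrophils, rose by 1.92 ± 0.405 in young mice (adjusted p = 0.00191), and in old mice its difference was 0.89 ± 0.717 (adjusted p = 0.351). Neutrophil markers were at -0.06 and 0.64 (medians) in unirradiated and irradiated young mice and at 1.02 and 1.77 in old mice.

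The slide that held both kinds of young mice (unirradiated replicates 5 and 6, irradiated replicates 1 and 2) gave differences in the same direction for the members called, 1.46 for Ccl6, 1.40 for Ccl9, 3.64 for Ccl24, 1.90 for Ccl2, 1.37 for Cxcl1 and 2.36 for Cxcl12. With slide as a fixed block, which rests on those 4 mice, no member was called in young mice (lowest adjusted p 0.0542, for Ccl6), and 1824 genes in all were, against 6300. With slide as a random block 6 of the 7 were called, the 4 above with Ccl3 and Ccl4, and 8865 genes in all. In old mice the slide with both kinds gave 1.34 for Ccl6, -0.47 for Ccl9, 2.22 for Ccl24, 0.59 for Ccl2, 0.10 for Ccl3, 1.05 for Ccl4, 0.88 for Cxcl10 and, near background, 4.46 for Cxcl12, 0.33 for Cxcl1 and 0.68 for Cxcl2, and none was called with slide as a fixed block.

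Age in unirradiated mice was compared to see whether the ligands already differed before exposure. Ccl2, Ccl3, Ccl6 and Ccl9 were higher in old mice by 1.25 ± 0.263, 1.23 ± 0.303, 1.36 ± 0.25 and 1.22 ± 0.221 on the log2 scale (limma adjusted p = 0.000800, 0.00231, 0.000306 and 0.000294), calls that 4 of the 5 other scalings or value sources lost altogether and quantile normalization kept for Ccl2 alone. With the median scaling 63.9% of all genes were called (48.5% higher, 15.4% lower) and the median of all genes was 0.63, whereas under the other scalings it was -0.04 to 0.16 and, of the genes called, 17.2% to 44.8% were higher, against 75.9%. With normexp background correction no gene was called. Beyond the shift of all genes the members were higher by 0.62 (Ccl2), 0.60 (Ccl3), 0.73 (Ccl6) and 0.59 (Ccl9). For Ccl6 and Ccl9 the groups did not overlap (exact permutation p = 0.00216 for both), as was so for 37.4% of all genes in the direction of old mice. For Ccl2 and Ccl3 they did overlap, with exact permutation p = 0.00433 and 0.00866.

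Cxcl12 went the other way. Without the filter on dim probes it was called lower in unirradiated old than in unirradiated young mice, where 40.5% of genes were called. The difference of measured means was -2.17 ± 0.377 on the log2 scale (limma adjusted p = 0.000416). It was lower under all scalings, though not called with normexp background correction (-0.06, adjusted p = 0.923). Only 3 of the 6 young mice and 0 of the 6 old mice had a signal well above background, and the other 3 young mice have no order against the old ones, so no fold is given. No member in the fit was lower in old mice without overlap of the groups, where 11.2% of genes were. Ccl4 (0.58), Ccl24 (0.24), Cxcl10 (-0.01), Cxcl1 (0.10) and Cxcl2 (-0.71) did not pass, with adjusted p from 0.140 to 0.979.

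Between irradiated old and irradiated young mice 0 of the 7 members in the fit were called by limma, and 1.99% of all genes were. Unadjusted p-values were under 0.05 for 3 of the 7, and the random variance test also called 0. Those 3 were Ccl24 (-3.20 ± 1.28, adjusted p = 0.171), Ccl9 (-1.97 ± 0.815, adjusted p = 0.184) and Cxcl10 (0.85 ± 0.274, adjusted p = 0.109). For Cxcl10, 5 of 6 irradiated old mice were above the highest young mouse at 2.31 (unadjusted exact permutation p = 0.00433). Slide as a random block called it, the only 1 of 18 other settings to do so. Over those settings its difference was 0.32 to 0.95, with adjusted p up to 0.882. Scan day and age cannot be told apart in this comparison. No member had groups that did not overlap here, as was so for 4.44% of all genes in the direction of old mice. The differences of Ccl2 (-0.40), Ccl3 (0.31), Ccl4 (0.27) and Ccl6 (-0.16) were all smaller than their SEs. Cxcl1 (-0.24), Cxcl2 (-0.11) and Cxcl12 (-1.12) did not pass either, in the fit without the filter on dim probes, where 0.407% of genes were called.

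Whether the response to radiation differed between the ages was tested as an interaction over 24 arrays. By limma 0 of the 7 members and 0% of all genes were called, with an unadjusted p under 0.05 for 3 members, Ccl9, Ccl2 and Ccl6. The response of old mice minus that of young mice was -3.19 ± 0.887 for Ccl9 (adjusted p = 0.112), -1.65 ± 0.613 for Ccl2 (0.144), -1.52 ± 0.700 for Ccl6 (0.196) and -3.44 ± 1.81 for Ccl24 (0.237). It was -0.92 for Ccl3, -0.31 for Ccl4, 0.86 for Cxcl10 and, without the filter on dim probes, 1.05 for Cxcl12, -0.33 for Cxcl1 and 0.60 for Cxcl2. Without irradiated old replicates 2, 3 and 5, Ccl2 (-2.37), Ccl6 (-2.46), Ccl9 (-4.78) and Ccl24 (-6.53) were called, as were 6050 genes in all, and without replicate 3 alone Ccl2 (-1.94, adjusted p = 0.0489) and Ccl9 (-3.64, adjusted p = 0.0309), with 1052 genes in all. The first of these fits kept only replicates 1, 4 and 6 of the irradiated old group, while young mice with high hepatocyte transcripts stayed in. Without irradiated old replicates 4 and 6 none of the 7 was called, and the values shrank to -0.97 for Ccl2, -0.48 for Ccl6, -1.91 for Ccl9 and -1.85 for Ccl24 (adjusted p = 0.367, 0.558, 0.125 and 0.641). None was called without irradiated young replicates 2, 4 and 5 either, an alternative chosen after the data were seen. There the values were -1.17 for Ccl2, -1.25 for Ccl6, -2.57 for Ccl9 and -2.75 for Ccl24 (adjusted p = 0.423, 0.461, 0.368 and 0.512). A call in young mice and none in old mice does not show that the response of a member differed between the ages.

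Of 31 further chemokine ligands listed for comparison, 27 had a probe and 14 were in the fit. In young mice 5 were called higher after irradiation and none lower: Cxcl13, a B cell attractant (4.32 ± 0.879), the platelet chemokines Ppbp (1.41 ± 0.260) and Pf4 (1.40 ± 0.231), Cxcl16, the ligand of Cxcr6 (1.33 ± 0.195), and Ccl25, the ligand of Ccr9 (0.81 ± 0.195), with limma adjusted p from 0.000166 to 0.00446. The share called over all genes was 35.4% in either direction and 14.3% higher. In old mice, where 24.9% of genes were called and 7.49% as higher, 4 ligands were called higher: Ppbp (1.54 ± 0.315), Pf4 (1.32 ± 0.336), Xcl1, made by natural killer and T cells (1.28 ± 0.341), and Cxcl16 (0.80 ± 0.216), with adjusted p from 0.00338 to 0.0127. Their medians were 0.33 in young and 0.96 in old mice. Platelet markers were at medians of -0.01 and 1.99 in unirradiated and irradiated young mice and of 1.17 and 3.07 in old mice, and the part of platelet RNA in Ppbp and Pf4 was not tested. Cxcl13 was well above background in 3, 6, 3 and 3 mice in unirradiated young, irradiated young, unirradiated old and irradiated old mice, where Ccl24 had 3, 6, 4 and 3.

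Of 23 chemokine receptors listed, 19 were in the fit. In young mice 3 were called higher, the myeloid receptors Cxcr2, Cxcr1 (1.71 ± 0.305) and Ccr1, and 7 lower, with the deepest falls in the lymphocyte receptors Ccr6 (-5.07), Ccr7 (-3.14), Cxcr5 (-2.17) and Ccr9 (-1.98). In old mice 1 was called higher (Cxcr1, 2.26 ± 0.665) and 5 lower: Ccr6 (-4.85), Ccr7 (-3.70), Cxcr5 (-3.54), Cx3cr1 (-2.22) and Ccr2 (-2.20). Over all genes 14.3% were called higher and 21.1% lower in young mice, and 7.49% and 17.4% in old mice. Medians of the 19 were 0.08 in young and -0.29 in old mice, beside -0.20 and -0.26 over all genes. The mean level of the listed receptors was -0.49 and -0.42 in irradiated old replicates 4 and 6. It was 0.48 to 0.69 in replicates 1, 2, 3 and 5 and 0.48 to 0.79 in unirradiated old mice. B cell markers, whose cells carry Ccr6, Ccr7 and Cxcr5, were at medians of -0.01 and -2.59 in unirradiated and irradiated young mice and of 0.60 and -3.25 in old mice. T cell markers were at medians of 0 and -1.46 in unirradiated and irradiated young mice and of -0.29 and -0.43 in old mice. The part of B cell or T cell number in these receptors was not tested. None of the 10 ligands was called lower in either age.

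**Figure D4:**
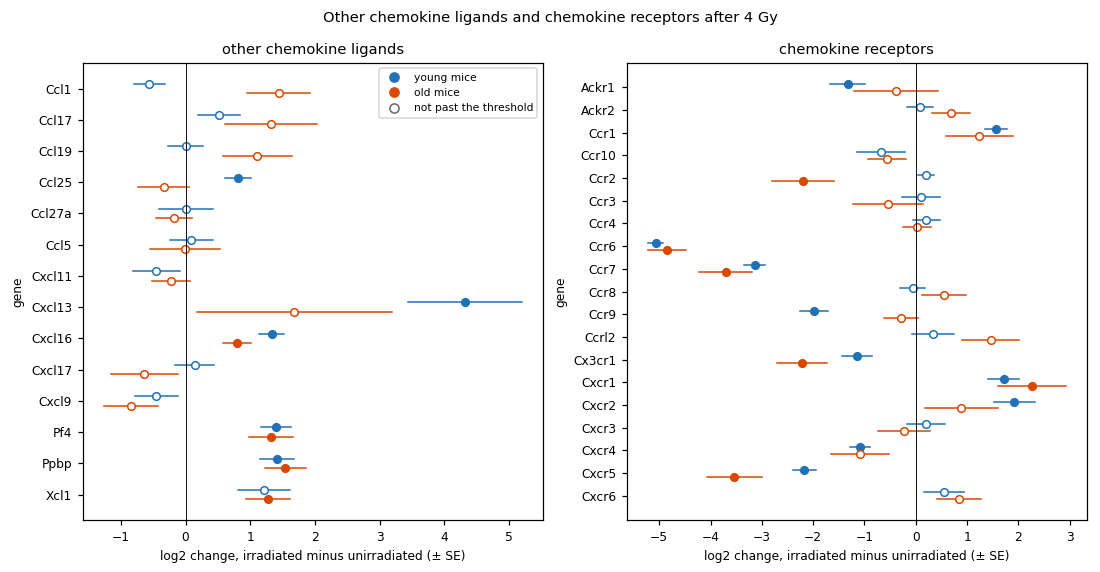
Log2 change after irradiation (x axis, irradiated minus unirradiated, ± SE, 6 mice per group) of the 14 other chemokine ligands and 19 chemokine receptors in the fit (y axis), in young mice (blue) and old mice (orange); open points did not pass the test. Pf4 and Ppbp lie between 1.32 and 1.54 in both ages, and Ccr6 lies at -5.07 and -4.85.

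Genes listed for NF-kB feedback and inflammatory cytokines (17 genes, 15 in the fit) were given beside the ligands that NF-kB is known to induce. In irradiated young mice 1 was called higher and 5 lower, where 14.3% of all genes were called higher and 21.1% lower. The median was -0.24, beside -0.20 over all genes. In irradiated old mice 0 were called higher and 4 lower, where 7.49% of all genes were called higher and 17.4% lower. The median there was -1.0, beside -0.26 over all genes. The irradiated old group was split here too. Relative to the median unirradiated young mouse, the mean level was -0.96 and -1.27 in replicates 4 and 6. Replicates 1, 2, 3 and 5 had 1.33, 1.02, 0.61 and 1.36, and unirradiated old mice 1.22 to 1.48. In unirradiated old against unirradiated young mice all 15 were called higher at the median scaling, with a median of 1.16 beside 0.63 over all genes, of which 48.5% were called higher. With the other scalings and on the deposited values 7 to 9 of 14 or 15 were called higher (and 1 lower on the deposited values), and with normexp background correction 0 of 11.

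The gene most like each member over the 24 arrays, among 17769 genes outside the list, was found by Pearson correlation of log2 levels, as a description, since these mice share groups, slides and scaling. Ccl24 was most like C1qc, a complement gene of macrophages (r = 0.980, Spearman's rho = 0.966). Ccl9 was most like Abca9 (r = 0.981, rho = 0.950) and Ccl6 most like Alox5, the leukotriene enzyme of myeloid cells (r = 0.969, rho = 0.960). The likeness of the dimmer or less changed members was looser. It was 0.916 for Ccl2 with Cttnbp2nl, 0.845 for Ccl4 with Nr4a2, an immediate early gene, 0.841 for Ccl3 with Sytl3 and 0.809 for Cxcl10 with Gfi1.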

How the data were processed

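Intensity values were deposited by the authors as 1 scanner file per array (Agilent Feature Extraction 12.0.2, per the submitters' processing notes), with the background subtracted and no scaling between arrays; probe coordinates are on mm9. A second deposited file, with log2 values that the authors had filtered and normalized (17190 probes, 9 members), was used as an alternative. It held 0 columns of other samples. Spots marked as non-uniform were left out, and the array median was subtracted after taking log2. A probe was dropped if 25% or more of the arrays had it non-uniform or without a positive, significant signal (39429 to 24130 probes). The probe with the highest mean stood for a gene (18737 genes), and a gene was kept if 20% of the arrays (5) departed 1.5-fold from its median (17805 genes). Groups were compared with limma 3.58.1 in R 4.3.3 (data.table, version 1.17.8; figures with Python 3.11.15 and matplotlib 3.10.9), two-sided, called at p under 0.005 and Benjamini-Hochberg adjusted p under 0.05. The 40 exact permutation tests of members (10 members, 4 comparisons) are unadjusted and were run on differences of means. Intervals are 95% and use the moderated spread. The tests were checked on simulated data. The methods describe a random variance test, which was an alternative beside other scalings, filters, blocks and left-out mice (normexp offset 50).

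All members were named, with their main receptors, the genes of each ligand or receptor list called with the largest change (up to 5 per comparison), the highest gene of each marker list and the gene most like each member. Some genes that this rule selects are left out of the lists and not reported here. The members, the 16 lists and the tests were chosen with earlier results of these data known. Marker levels are means over those list members that 3 or more arrays had well above background.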

Additional observations from a re-analysis of the deposited data

Results flagged for a closer look

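Each of the 40 groups of 6 mice that a member has (10 members in 4 groups) was looked at for a single mouse far from the rest, and 2 groups had one, where chance gives about 1 in 20. In unirradiated old mice Ccl4 of replicate 2 was at 5.30 and the next highest mouse at 4.07, a gap of 0.675 of the range of the group. Cxcl12 of unirradiated old replicate 3 was at -2.48, with the next mouse at -2.78 (0.634 of the range), and neither value was well above background.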

How the results depend on the processing

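Left-out mice, slides and scaling limit these results, as do members near background, for which values below the detection limit have no order. Under other settings 722 values kept their direction and their side of the threshold, 52 lost a call, 15 gained one and 43 changed sign, and with 1 mouse left out 668 kept both, 21 lost a call, 6 gained one and 25 changed sign. The causes were not tested, unless given here. No setting other than those named here moved a count of members called by over 1.5 times.

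The count of members higher in unirradiated old mice, 4, was 0 with the 75th percentile, the median of probes that all arrays had well above background, normexp or the deposited table, and 1 with quantile normalization or 1 fit of all 24 arrays. In old mice the count after irradiation, 0, was 1 on the deposited table (Cxcl2), 2 without the filter on dim probes (Cxcl2 and Cxcl12), 1 when probes had to be well above background in all 6 mice of a group (Cxcl12), 1 without irradiated old replicates 2, 3 and 5 (Ccl9) and 1 without replicates 4 and 6 (Ccl6). Between irradiated groups it was 1 in 1 fit of all arrays (Ccl9), 1 with slide as a random block (Cxcl10) and 2 without irradiated old replicates 2, 3 and 5. The count in young mice was 0 with slide as a fixed block, a fit that rests on 4 mice, and the interaction count was 4 without irradiated old replicates 2, 3 and 5. With each mouse left out in turn the counts were 4 to 5 in young mice, 0 to 1 in old mice, 4 to 4 and 0 to 0 between the ages without and with irradiation, and 0 to 2 for the interaction.

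Signs turned as follows, in values that had not passed other than Cxcl2 in old mice with normexp. With the 75th percentile Ccl3 in old mice was 0.25, and between unirradiated groups Ccl24 was -0.28 and Cxcl1 -0.42. With quantile normalization Ccl2 and Ccl3 in old mice were -0.01 and 0.22, Cxcl1 between unirradiated groups -0.11, and Ccl4 and Cxcl2 between irradiated groups -0.04 and 0.07. Scaled by the median of probes that all arrays had well above background, Ccl3 in old mice was 0.28, and Ccl24 and Cxcl1 between unirradiated groups -0.32 and -0.46. With normexp Cxcl2 was -0.02 in young mice, Ccl3 0.24 and Cxcl2 -0.04 in old mice, Ccl4 -0.07 and Cxcl1 0.15 between irradiated groups, and the interactions of Cxcl1, Cxcl2 and Cxcl12 were 0.04, -0.02 and -0.39. On the deposited table Ccl3 in old mice was 0.28, Ccl4 was -0.06 between unirradiated and -0.02 between irradiated groups, and its interaction was 0.04. With slide as a fixed block Cxcl10 in young mice was 0.42 and Ccl3 in old mice 0.10. Without irradiated old replicates 2, 3 and 5, Ccl2, Ccl6 and Ccl24 in old mice were -0.50, -0.71 and -1.95, Cxcl2 between irradiated groups 0.28 and the interaction of Cxcl12 -1.72. Without irradiated old replicates 4 and 6, chosen after the data were seen, Ccl2, Ccl6, Cxcl1 and Cxcl12 between irradiated groups were 0.28, 0.88, 0.14 and 0.32, and the interaction of Cxcl1 was 0.05. Without irradiated young replicates 2, 4 and 5, also chosen after the data were seen, Cxcl10 in young mice was 0.33, and Ccl2, Ccl3, Ccl4, Ccl6, Cxcl1 and Cxcl12 between irradiated groups were 0.08, -0.30, -0.28, 0.11, 0.59 and 1.06, and the interaction of Cxcl1 was 0.50. With 1 mouse left out the range crossed 0 for Cxcl10 in young mice (-0.22 to 0.10), for Ccl2 (-0.07 to 0.54), Ccl3 (-0.18 to 0.15) and Ccl6 (-0.03 to 0.68) in old mice, for Ccl24 (-0.23 to 0.89), Cxcl1 (-0.17 to 0.32) and Cxcl10 (-0.25 to 0.32) between unirradiated groups, and for Ccl6 (-0.42 to 0.29), Cxcl1 (-0.81 to 0.08) and Cxcl2 (-0.32 to 0.08) between irradiated groups.

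Same-numbered mice do not share an animal or a stated batch, and their deviations from the group means correlated by -0.286 to 0.294 in young mice (0 of 6 mice closest to their own number) and by -0.203 to 0.336 in old mice (3 of 6). With the replicate number as a block, 4, 0, 4 and 0 members were called in the 4 pairs of groups and 0 in the interaction. The block lowered the calls over all genes to 5070, 3469, 10369 and 2 in the 4 pairs, from 6300, 4429, 11370 and 355.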
